A study of Mus musculus with 6 samples.

Results

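The genes described here are 8 members of the oxidant and arginine enzyme systems of phagocytes and scar tissue: *Cybb*, *Cyba*, *Ncf1*, *Ncf4*, and *Rac2*, which encode parts of the phagocyte NADPH oxidase, *Nox4*, which encodes another NADPH oxidase, and *Nos2* and *Arg1*, which encode enzymes that compete for arginine. They were chosen by name, with earlier results of these data known. All 8 were found among the 46078 genes in the count tables, and all 8 were among the 15554 genes that passed the filter on low counts and were tested. Bulk RNA-Seq was performed on infarcts (*n* = 3) and on the equivalent region of the contralateral cortex (*n* = 3), taken from wild type C57BL/6J mice aged 3 months, at 7 weeks after a stroke made by distal occlusion of the middle cerebral artery followed by hypoxia. Male mice were used in the study, both regions come from brains with a stroke, and there was no tissue from unoperated mice, so the contralateral cortex is a reference region and not uninjured brain. The infarcts were dissected by eye. The labels do not tie infarcts to contralateral tissue of the same animal, so the *p* values measure the spread between these libraries.

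The phagocyte NADPH oxidase moves electrons from cytosolic NADPH across a membrane to oxygen and makes superoxide. Its membrane part is a heterodimer of the catalytic subunit gp91phox, encoded by *Cybb*, and p22phox, encoded by *Cyba*, and it becomes active when cytosolic subunits, among them p47phox (*Ncf1*) and p40phox (*Ncf4*), and a GTP-bound Rac protein join it. NOX4 also needs p22phox but not the cytosolic subunits, is active without such assembly and releases mainly hydrogen peroxide. Inducible nitric oxide synthase (*Nos2*) makes nitric oxide and citrulline from arginine, whereas arginase 1 (*Arg1*) splits arginine into ornithine and urea, and these enzymes are widely used as readouts of classical and alternative macrophage activation in mice.

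The promoters of *Cybb*, *Ncf1*, and *Nox4* are shown because these genes, an oxidase subunit that makes superoxide, its organizer and the other oxidase, rose together in infarcts and differ in base composition and in the motifs they hold. Windows run from 250 bases before to 50 bases after the RefSeq start on GRCm38.p6, read 5′ to 3′ on the strand of the gene, and 4 of the 8 members had an entry (*Cybb*, *Ncf1*, *Nox4*, and *Cyba*). Capitals mark matches on either strand to GAAANNGAA, a motif of the interferon regulatory factors (IRF), to GAGGAA, a motif of the myeloid factor PU.1, and to CAGACA, a motif of the SMAD factors.
*Cybb*, chrX:9469275-9469574, minus strand: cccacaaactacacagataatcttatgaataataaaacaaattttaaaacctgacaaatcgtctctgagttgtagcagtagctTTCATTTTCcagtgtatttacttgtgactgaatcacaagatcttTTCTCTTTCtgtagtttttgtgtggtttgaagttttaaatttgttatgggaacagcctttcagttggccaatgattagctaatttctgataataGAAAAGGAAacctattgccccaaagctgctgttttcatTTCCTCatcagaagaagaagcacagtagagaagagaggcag
*Ncf1*, chr5:134229576-134229875, minus strand: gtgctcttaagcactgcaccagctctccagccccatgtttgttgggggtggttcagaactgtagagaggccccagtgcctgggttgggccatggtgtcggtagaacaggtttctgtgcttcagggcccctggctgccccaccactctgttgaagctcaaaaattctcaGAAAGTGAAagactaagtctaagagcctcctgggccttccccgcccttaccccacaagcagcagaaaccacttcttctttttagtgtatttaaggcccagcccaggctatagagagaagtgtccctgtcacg
*Nox4*, chr7:87246399-87246698, plus strand: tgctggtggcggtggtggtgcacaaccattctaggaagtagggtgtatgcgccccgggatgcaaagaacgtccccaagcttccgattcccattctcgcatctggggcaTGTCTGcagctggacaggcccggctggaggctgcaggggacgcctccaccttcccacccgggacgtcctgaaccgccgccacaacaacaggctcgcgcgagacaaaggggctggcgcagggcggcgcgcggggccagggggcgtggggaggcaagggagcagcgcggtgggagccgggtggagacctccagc
The *Cybb* window had 35.3% G and C and held the IRF motif at 3 places and the PU.1 motif at 1 place, the latter on the opposite strand just downstream of the start. It also held the AP-1 motif TGANTCA at 1 place. The *Ncf1* window had 54.0% G and C, and its single IRF motif overlapped its single match to the STAT motif TTCNNNGAA. The *Nox4* window had 68.3% G and C, with 1 SMAD motif, 1 STAT motif, and neither the IRF nor the PU.1 letters. The *Cyba* window (chr8:122432891-122433190, minus strand, 60.7% G and C) held none of the 8 motifs searched. The remaining motifs, namely TTGCNNAA for C/EBP, the letters TATAAA of the TATA box and the NF-kB consensus, were found in none of these 4 windows and in 10.8%, 13.6%, and 4.51% of all windows. Among 32851 promoter windows of the same length, 8.56% held the IRF motif, 28.3% the PU.1 motif, 21.0% the SMAD motif, 8.30% the STAT motif, and 7.81% the AP-1 motif. A match describes letters in a window and does not show binding.

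All 8 members were higher in infarcts than in the contralateral cortex. A gene was called at an adjusted *p* under 0.05 (edgeR quasi-likelihood test, Benjamini-Hochberg over all 15554 tested genes) with a log2 fold change beyond 1, and by this rule 8 of 8 members were called higher and 0 lower, against 25.7% of all tested genes called higher and 20.9% called lower. In all 8 the lowest infarct library lay above the highest contralateral library, as it did for 37.6% of tested genes. The median log2 fold change of the members was 5.97, or 5.76 with *Nox4* and *Arg1* at their lower bounds, against 0.03 over all tested genes. Within infarcts the members parted: the oxidase genes differed by less than 2-fold between the 3 libraries, while *Nos2* and *Arg1* differed by 6.15-fold and 9.81-fold and were lowest in different infarcts. In bulk tissue, fewer cells of a type and less RNA per cell cannot be told apart.

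**Figure D1:**
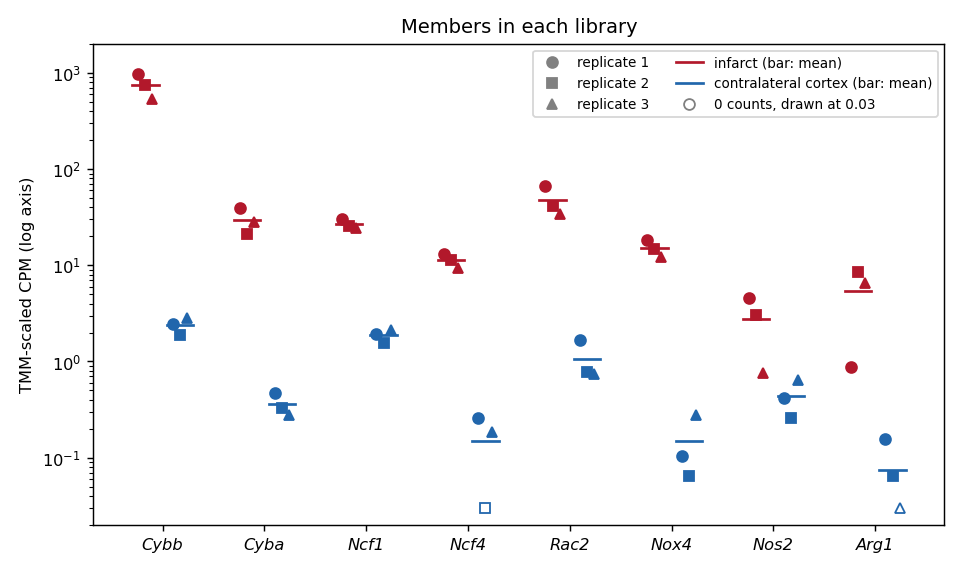
Abundance of the 8 members in each library, as counts scaled to library size (CPM, TMM-scaled) on a log axis, with infarct libraries in red, contralateral libraries in blue, replicate numbers as marker shapes and group means as bars. Open markers are libraries with 0 counts, drawn at 0.03. Every infarct value lies above every contralateral value of the same gene, with the smallest gap for *Nos2*.

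*Cybb*, the catalytic subunit, was the most abundant member and the one that rose most. Counts were 12243, 10247, and 7937 in infarcts of replicates 1, 2, and 3 and 47, 29, and 31 in contralateral cortices, which are 756 ± 217 and 2.40 ± 0.489 CPM, the counts scaled to library size (mean ± SD, *n* = 3 libraries). Each infarct library was thus far above every contralateral library, and replicate 1 was the highest infarct. The log2 fold change was 8.31 (SE 0.32), or 317-fold, with an adjusted *p* of 1.636e-07 by edgeR. Ranked among the 15554 tested genes, *Cybb* was 106th by mean infarct CPM and 128th by log2 fold change. The gene lies on chrX:9435252-9487771 (GRCm38, minus strand) in GENCODE. The promoter window shown above, chrX:9469275-9469574, lies inside that span, since the RefSeq start used for it differs from the GENCODE gene end.

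*Cyba*, its membrane partner, rose less steeply and from lower counts. Infarct libraries held 494, 289, and 411 counts, and contralateral libraries held 9, 5, and 3 counts. Mean abundance was 29.5 ± 9.15 CPM against 0.358 ± 0.101 CPM. The groups did not come near each other, and the log2 fold change was 6.28 (SE 0.35, edgeR adjusted *p* = 4.946e-07). Per kilobase of exon, *Cybb* stood at 130 CPM in infarcts and *Cyba* at 28.4 CPM, while in the contralateral cortex their levels, 0.413 and 0.344 CPM per kilobase, overlapped. In terms of the ratio within each library, *Cyba* per kilobase was 0.226, 0.158, and 0.289 times *Cybb* in infarcts and 1.07, 0.964, and 0.541 times *Cybb* in contralateral cortices. The log2 ratio was lower in infarcts by -1.92 with no overlap, and the exact two-sided permutation *p* was 0.1 (0.111 adjusted over the 10 ratios tested), the smallest that 3 against 3 libraries allow. *Cybc1*, a chaperone of the heterodimer, was called higher with a log2 fold change of 1.74 (SE 0.16).

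Among the cytosolic subunits, the organizer *Ncf1* had the most even infarct counts. They were 383, 348, and 361, against 37, 24, and 23 in contralateral cortices, or 26.9 ± 3.16 and 1.87 ± 0.285 CPM. The infarct values stayed within 1.24-fold of each other, and the log2 fold change of 3.85 (SE 0.21, edgeR adjusted *p* = 5.02e-07) was the smallest among the 5 phagocyte oxidase members. On the opposite strand *Gtf2ird2* overlaps 11.1% of the exon bases of *Ncf1*, and the strand setting of the counting was not given in the sources used here.

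*Ncf4*, the subunit that binds a membrane phosphoinositide, was nearly undetected outside the infarct. Counts were 163, 156, and 137 in infarcts and 5, 0, and 2 in contralateral cortices, or 11.3 ± 1.82 and 0.149 ± 0.134 CPM. All infarct libraries were far above the contralateral ones, among which replicate 2 held no count. The fitted log2 fold change was 6.12 (SE 0.50, edgeR adjusted *p* = 4.495e-06), and it was 7.01 without the contralateral library of replicate 1, which held most of the contralateral counts. In the contralateral cortex a count of 0 in 1 library shows no more than that the level was under about 3 counts.

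*Rac2*, the Rac GTPase of blood cells, rose against an abundant homologue that was not called. *Rac2* counts were 842, 564, and 501 in infarcts and 32, 12, and 8 in contralateral cortices, or 47.6 ± 17.3 and 1.06 ± 0.527 CPM. Replicate 1 was the highest in each region, and the log2 fold change was 5.41 (SE 0.39, edgeR adjusted *p* = 4.113e-06). *Rac1*, the widely expressed homologue, averaged 251 ± 32.2 and 213 ± 25.7 CPM in these regions, with overlapping libraries and a log2 fold change of 0.24 (95% interval -0.12 to 0.60). Per kilobase, *Rac2* was 0.340, 0.270, and 0.202 times *Rac1* in infarcts and 0.0128, 0.00471, and 0.00510 times *Rac1* in contralateral cortices. The log2 ratio was higher in infarcts by 5.29, with an exact two-sided permutation *p* of 0.1. *Daglb* overlaps 51.4% of the exon bases of *Rac1* on the opposite strand. Reads that aligned to more than 1 place, as reads of close homologues may, were tallied apart from both genes.

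The subunits did not keep 1 ratio to *Cybb* between regions. The log2 ratio to *Cybb*, per kilobase and within a library, was lower in infarcts by -4.43 for *Ncf1*, with no overlap and an exact two-sided permutation *p* of 0.1. For *Ncf4* it was lower by -2.45 over 3 infarct and 2 contralateral libraries, the third having no count, and was not tested. In the contralateral cortex *Ncf1*, at 0.511 CPM per kilobase, was the highest of the 8 members and above *Cybb* in 3 of 3 libraries, although their ranges overlapped, whereas in infarcts *Ncf1*, at 7.34 CPM per kilobase, was below *Cybb*, *Cyba*, and *Rac2* in 3 of 3 libraries. The infarct order per kilobase of exon was *Cybb*, *Cyba*, *Rac2*, *Ncf1*, *Ncf4*, *Arg1*, *Nox4*, and *Nos2*. In that order the library ranges of *Cyba* and *Rac2* overlapped, as did those of *Arg1* and *Nox4*, and the other neighbors were apart. *Arg1* and *Nos2*, which are not neighbors in it, also overlapped, and *Nos2* was above *Arg1* in replicate 1 (1.05 against 0.393 CPM per kilobase). The contralateral order was *Ncf1*, *Cybb*, *Cyba*, *Rac2*, *Nos2*, *Ncf4*, *Arg1*, and *Nox4*, and there the sole neighbors whose ranges were apart were *Rac2* and *Nos2*. With the longest transcript as the length, *Nox4* (3.88 CPM per kilobase) came before *Arg1* (3.63).

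Of 8 phagocyte oxidase genes, counting *Cybc1*, *Rac1*, and *Rap1a*, 7 were called higher, *Rac1* was not called, and none was called lower. Their median log2 fold change was 4.63, and 25.7% of all tested genes were called higher. *Rap1a*, a small GTPase found with the heterodimer, was the called gene that rose least (1.43, SE 0.15). Of 24 genes for receptors, kinases, exchange factors, and the proton channel that act upstream of or beside the oxidase, 22 were called higher and 1 lower, with a median of 4.19. *Itgam* and *Fcgr1* of this list are also among the macrophage and microglia markers. *Clec7a*, the receptor for fungal glucans, had a log2 fold change of 10.85 (SE 0.42). *Fgr*, a Src family kinase, was at least 233-fold higher in infarcts, where it had 581 to 723 counts against 0 to 1. *Itgb2*, the shared beta chain of leukocyte integrins, had a log2 fold change of 5.88 (SE 0.24). *Prkcb*, a protein kinase C gene that neurons also express, was called lower (-2.25, SE 0.24), and *Prex1*, a Rac exchange factor, was not called (0.13).

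**Figure D2:**
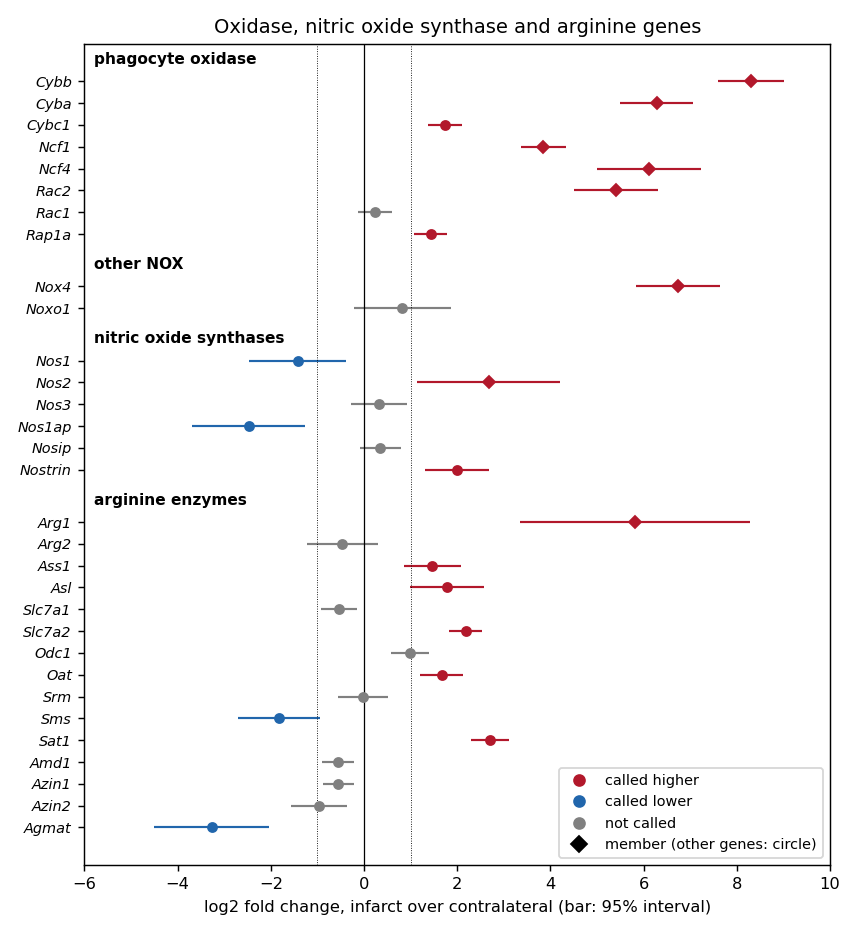
Log2 fold change of infarct over contralateral cortex with its 95% interval for the tested genes of the phagocyte oxidase, other NADPH oxidase (NOX), nitric oxide synthase, and arginine lists. Red marks genes called higher, blue genes called lower, gray genes not called, diamonds the 8 members, and dotted lines the fold change threshold. The oxidase genes other than *Rac1* lie to the right, while the nitric oxide synthase and arginine genes lie on both sides of 0.

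*Nox4*, the oxidase that works without the cytosolic subunits, also rose from near absence. Counts were 232, 203, and 179 in infarcts and 2, 1, and 3 in contralateral cortices. Since no contralateral library held more than 3 counts, *Nox4* was at least 72.5-fold higher in infarcts, with each contralateral library set to 3 counts. Its infarct mean was 15.2 ± 3.14 CPM, and the fitted log2 fold change was 6.74 (SE 0.40, edgeR adjusted *p* = 7.389e-07). The 3 infarct libraries were within 1.51-fold of each other. Relative to *Cybb* per kilobase, *Nox4* stood at 0.0130, 0.0136, and 0.0155 in infarcts, so the ratio of these catalytic subunits varied little between infarcts. Its level depends on the length used, since with longest transcripts the infarct means were 3.88 CPM per kilobase for *Nox4* and 159 for *Cybb*, against 1.79 and 130 with the union of exons. The contralateral ratios of 0.0292, 0.0236, and 0.0664 rest on 1 to 3 counts of *Nox4*.

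*Nox4* was the sole gene called among the other oxidases. Of 10 listed genes, 8 did not pass the filter on low counts. *Noxo1*, an organizer that resembles p47phox, passed but was not called (log2 fold change 0.82, 95% interval -0.22 to 1.86), and 70.4% of its exon bases are overlapped by *Tbl3* on the opposite strand. *Nox1* had 3, 2, and 3 counts in infarcts and 2, 6, and 0 in contralateral cortices, and *Nox3*, *Duox2*, *Duoxa1*, *Duoxa2*, and *Noxa1* had at most 3 counts in any library. *Noxred1* had 3, 3, and 8 counts in infarcts and 8, 12, and 7 in contralateral cortices. *Duox1*, a dual oxidase, had 0 counts in all 3 infarcts and 4, 10, and 3 in contralateral cortices.

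*Nos2* was the least abundant member in infarcts by mean CPM, although *Arg1* was lower in replicate 1, and it rose least. Counts were 58, 41, and 11 in infarcts and 8, 4, and 7 in contralateral cortices, which are 4.62, 3.01, and 0.751 CPM against 0.418, 0.260, and 0.646 CPM. The infarct of replicate 3 lay barely above the highest contralateral library, whereas replicates 1 and 2 were well above it. The log2 fold change was 2.68 (SE 0.68, 95% interval 1.14 to 4.21), with an edgeR adjusted *p* of 0.00657. *Nos2* remained called when any 1 library was left out, with a log2 fold change of 2.13 without infarct replicate 1 and 3.15 without infarct replicate 3.

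*Arg1* was nearly absent from the contralateral cortex and uneven between infarcts. Counts were 11, 117, and 97 in infarcts and 3, 1, and 0 in contralateral cortices, or 0.876, 8.59, and 6.62 CPM against 0.157, 0.0651, and 0 CPM. The infarct of replicate 1 was the low one, though still above every contralateral library. With each contralateral library set to 3 counts, *Arg1* was at least 25.6-fold higher in infarcts, and the fitted log2 fold change was 5.82 (SE 1.07, edgeR adjusted *p* = 0.00164). The fitted value was 6.83 without contralateral replicate 1, which held 3 of the 4 contralateral counts, and 6.33 without infarct replicate 1.

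**Figure D3:**
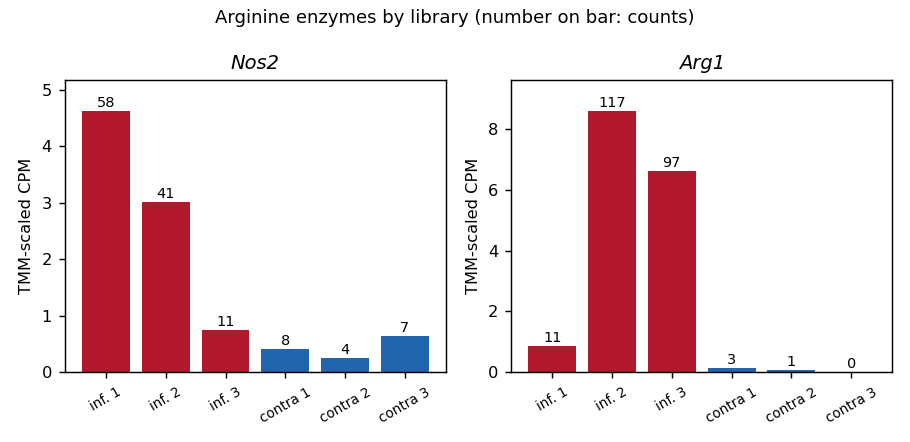
Abundance of *Nos2* and *Arg1* in each library in TMM-scaled CPM, with infarcts in red, contralateral cortices in blue and raw counts above the bars. *Nos2* was lowest in infarct replicate 3 (11 counts) and *Arg1* in infarct replicate 1 (11 counts).

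*Nos2* and *Arg1* thus differed in which infarct was lowest, replicate 3 for *Nos2* and replicate 1 for *Arg1*, and both were higher in replicate 2 than in replicate 3. The ratio of *Nos2* to *Arg1* per kilobase was 2.66 in infarct replicate 1, 0.177 in replicate 2, and 0.0573 in replicate 3. In the contralateral cortex it was 1.35 and 2.02 in replicates 1 and 2, from at most 8 counts of either gene, and had no value in replicate 3. The ratios of the regions overlapped and were not tested. Among the 14607 tested genes with a mean of at least 1 CPM in infarcts, the ratio of the highest to the lowest infarct library had a median of 1.40, and it was smaller than that of *Arg1* for 99.5% and smaller than that of *Nos2* for 98.8% of them. The 11 to 117 infarct counts of *Nos2* and *Arg1* carry more counting error than the counts of *Cybb*. For *Cybb* the ratio was 1.80, larger than that of 76.1% of these genes, for *Nox4* it was 1.51 (60.1%), and for *Ncf1* it was 1.24 (26.8%).

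Other cell markers also differed between the infarcts. Summed T cell markers (6 genes) were 116, 44.1, and 27.7 CPM in infarcts of replicates 1, 2, and 3, and summed B cell markers (5 genes) were 295, 140, and 117 CPM, highest where *Arg1* was lowest and *Nos2* highest. Summed neuron markers were 461, 647, and 1246 CPM, highest where *Nos2* was lowest. The part of these differences in the values of *Nos2* and *Arg1* was not tested.

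Genes with a pattern like those of the uneven members were sought among 14175 protein-coding genes by the root mean square (RMS) difference of log2 CPM over the 6 libraries, each gene centered on its own mean. For *Arg1* they were *Pla2g2e*, a secreted phospholipase A2 (RMS 0.68), *Comp*, a cartilage matrix protein (0.72), and *Klk6*, a kallikrein protease (0.74). *Pla2g2e* had 15, 83, and 56 counts in infarcts and 0 in all contralateral libraries. For *Nos2* they were *F2rl1*, a protease-activated receptor (0.40), *Ephx3*, an epoxide hydrolase (0.48), and *Rrm2*, a subunit of ribonucleotide reductase (0.52). Counting error adds to the distances of *Nos2* and *Arg1*, whose counts were low, so distances are not compared between members. For *Cybb* the nearest were *Lyz2*, the lysozyme of myeloid cells (0.13), *Fcgr4*, an Fc receptor for immunoglobulin G (0.20), and *H2-Aa*, an MHC class II chain (0.21). *Lyz2* had 98590, 93016, and 68354 counts in infarcts and 348, 211, and 254 in contralateral cortices. Its infarcts had the same order as those of *Cybb*, a similarity by which it was chosen. For *Nox4* the nearest were *Sdc1*, a heparan sulfate proteoglycan (0.13), *Neurl3*, a ubiquitin ligase (0.14), and *Cxcl16*, a chemokine (0.16). With library totals in place of TMM scaling, 11 of these 12 genes were again chosen, *Sirpb1c* replacing *Cxcl16*.

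The other nitric oxide synthase genes did not follow *Nos2*. *Nos1*, the neuronal enzyme, had 76, 181, and 351 counts in infarcts and 851, 475, and 449 in contralateral cortices and was called lower (log2 fold change -1.43, SE 0.44, edgeR adjusted *p* = 0.0236). That call was lost without infarct replicate 2 (-1.345), contralateral replicate 1 (-1.33) or contralateral replicate 3 (-1.38), and the log2 fold change ranged from -1.04 without infarct replicate 1 to -1.99 without infarct replicate 3, both called. Its adaptor *Nos1ap* was also called lower (-2.48, SE 0.51). Both were highest among infarcts in replicate 3, as were the summed neuron markers, of which 6 of 6 were called lower and which summed to 7288 to 8335 CPM in contralateral cortices. The part of these markers in the values was not tested. *Nos3*, the endothelial enzyme, was not called (0.32, 95% interval -0.29 to 0.92), nor was *Nosip*, a protein that binds nitric oxide synthase (0.35), while *Nostrin*, which traffics the endothelial enzyme, was called higher (3.99 ± 0.357 against 0.990 ± 0.0699 CPM). Of 7 genes of tetrahydrobiopterin synthesis, the cofactor of these enzymes, 5 were tested and 1 was called. That gene was *Gch1*, the rate-limiting enzyme, with a log2 fold change of 2.98 (SE 0.37). The share called higher over all tested genes was 25.7%.

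Among 15 genes of arginine uptake and of urea cycle and polyamine metabolism, 6 were called higher and 2 lower. Their median log2 fold change was -0.03. Of all tested genes, 25.7% were called higher and 20.9% lower, with a median of 0.03. The arginine transporter *Slc7a2* rose from 78.2 ± 1.94 to 354 ± 50.8 CPM (2.18, SE 0.16), whereas *Slc7a1*, the other transporter listed, had a log2 fold change of -0.54 and did not reach the fold threshold. *Ass1* and *Asl*, which rebuild arginine from citrulline, rose by 1.47 and 1.78 on the log2 scale. *Oat*, which converts ornithine toward proline and glutamate, rose by 1.67 and *Sat1*, which acetylates polyamines, by 2.71. Spermine synthase *Sms* (-1.83) and *Agmat*, annotated as agmatinase (at most 3 counts in infarcts, at least 6.78-fold lower), were the genes called lower. *Odc1*, which makes putrescine from ornithine, had a log2 fold change of 0.99 (SE 0.18), just under the threshold, and was called higher under 8 of 16 alternative settings. The mitochondrial arginase *Arg2* had 36, 20, and 27 counts in infarcts and 53, 47, and 29 in contralateral cortices and was not called (-0.47, 95% interval -1.23 to 0.30). *Srm*, *Amd1*, *Azin1*, and *Azin2* were not called, with values from -0.96 to -0.03. *Arg1* per kilobase was 0.196 times *Arg2* in infarct replicate 1 but 3.75 and 2.30 times *Arg2* in replicates 2 and 3.

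Genes used as readouts of classical and alternative macrophage activation were both mostly higher, against 25.7% called higher and 20.9% lower over all tested genes. Of 17 classical genes, 14 were tested and 13 were called higher and none lower, with a median log2 fold change of 4.20, or 3.32 with 4 genes at their bounds. *Cxcl9* and *Cxcl10*, chemokines induced by interferon gamma, were at 0 counts in all contralateral libraries and were at least 99.6-fold and at least 65.9-fold higher in infarcts, and *Il12b*, a cytokine subunit, was at least 8.31-fold higher. *Ptgs2* was not called (0.36). Of 19 alternative genes, 14 were tested, 12 were called higher and 1 lower, with a median of 3.12, or 2.85 with 2 genes at their bounds. *Chil3*, a chitinase-like secreted protein, was at least 37.9-fold higher, *Ccl22*, a chemokine, rose by 5.31 on the log2 scale, and *Irf4* rose by 4.41. *Irf4* was at 65.9, 29.6, and 14.5 CPM in infarcts of replicates 1, 2, and 3. The summed B cell and T cell markers fell in the same order, and their part in the values of *Irf4* was not tested. *Il4*, annotated as the cytokine that induces this state, was called lower (-1.52, SE 0.18), and *Cd163* was not called (0.46). *Il4* had 108, 97, and 141 counts in infarcts and 437, 390, and 269 in contralateral cortices. Its exon union spans 1227 bases and its longest transcript 605. Whether these counts come from transcripts that encode the cytokine was not tested. *Retnla*, chosen after its values were seen, did not pass the filter and had 0, 20, and 19 counts in infarcts and 0 in all contralateral libraries. The summed CPM of the list did not share the low value of *Arg1* in infarct replicate 1. The alternative genes summed to 852, 640, and 489 CPM in infarcts of replicates 1, 2, and 3, and the classical genes to 572, 418, and 371 CPM. Both sums were thus highest in replicate 1. Such sums weigh abundant genes most, such as *Mrc1* at 223, 162, and 113 CPM, and do not describe each gene of a list. *Retnla*, for example, was at 0 in replicate 1.

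Marker genes give the cellular setting of these values, beside shares of 25.7% called higher and 20.9% called lower over all tested genes. Of 12 macrophage and microglia markers, 11 were called higher, *P2ry12* was not (-0.20), and their sum was 2241 to 2747 CPM in infarcts against 404 to 515 CPM. Neutrophils also carry the phagocyte oxidase. Of 12 neutrophil markers, 7 were tested and all 7 were called higher, with sums of 67.7 to 84.0 CPM against 4.75 to 6.64 CPM. Most of these sums was *Csf3r*, at 44.9 to 53.7 CPM in infarcts and 4.65 to 5.35 CPM in contralateral cortices. *Elane* was at 0 in all 6 libraries, *Ly6g* had 0, 2, and 0 counts in infarcts, and *Mpo* had 4, 1, and 10. Fibroblast markers, 6 of 6 called higher, summed to 6927 to 8680 CPM against 146 to 189 CPM, endothelial markers, 3 of 6 called higher, to 303 to 424 CPM against 201 to 221 CPM, and pericyte and smooth muscle markers, 4 of 5 called higher, to 459 to 670 CPM against 201 to 242 CPM. Among astrocyte markers 2 of 5 were called higher and 1 lower, and among oligodendrocyte markers 1 of 4 was called higher. The part of these cell types in the values of the members was not tested, beyond the ratios that follow.

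**Figure D4:**
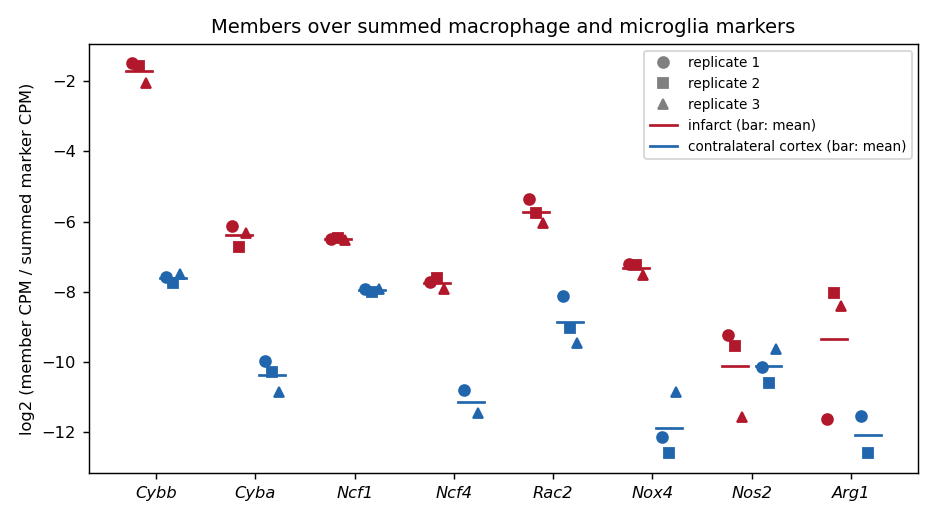
Log2 ratio of each member's CPM to the summed CPM of 12 macrophage and microglia markers in the same library, for infarcts (red) and contralateral cortices (blue), with replicates as marker shapes and means as bars. Libraries with 0 counts of a member (*Ncf4* in contralateral replicate 2, *Arg1* in contralateral replicate 3) are not drawn. The oxidase genes are higher in infarcts, while *Nos2* and *Arg1* overlap between regions.

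Set against the summed macrophage and microglia markers of the same library, the oxidase members were still higher in infarcts. The log2 ratio was higher by 5.89 for *Cybb*, 4.54 for *Nox4*, 3.97 for *Cyba*, 3.14 for *Rac2*, and 1.46 for *Ncf1*, with no overlap and an exact two-sided permutation *p* of 0.1 for each. *Ncf4* was higher by 3.37 over 3 infarct and 2 contralateral libraries, without a test. These ratios use macrophage and microglia markers alone, and ratios to markers of other cell types were not taken. The median log2 fold change was 6.59 for fibroblast markers, beside 6.74 for *Nox4* itself. It was 1.34 for pericyte and smooth muscle markers and 1.16 for endothelial markers. The part of fibroblasts in the values of *Nox4* was not tested. The *Ncf1* ratio was nearly even within each region, at 0.0111, 0.0114, and 0.0109 in infarcts and 0.00414, 0.00387, and 0.00412 in contralateral cortices. The *Nos2* ratio overlapped between regions, with a log2 difference of 0.018 (exact two-sided permutation *p* = 1) that ranged from -0.43 to 0.74 when 1 library was left out. The *Arg1* ratio also overlapped, since infarct replicate 1 (log2 ratio -11.61) lay below contralateral replicate 1 (-11.54), with both other infarcts at -8.03 and -8.41.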

How the data were processed

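The 8 members and all gene lists were chosen with earlier results of these data known. Per the labels and the paper, the authors prepared stranded mRNA libraries from RNA with an integrity number over 8, sequenced paired reads, trimmed them with Trimmomatic 0.32, aligned them to GRCm38 with STAR 2.5.2b, and deposited raw counts per Ensembl gene from HTSeq, whose annotation and strand setting are not given in the sources used here. Reads assigned to no single gene (26.6% to 34.3% of the tallied reads) were left out. Totals on genes were 12146959 to 13427057 in infarcts and 11943570 to 19933962 in contralateral cortices. No libraries of a region were duplicates, since counts differed beyond sampling noise (mean chi-square per gene 13.8 to 55.3).

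Counts were fitted with edgeR 4.0.16 (R 4.3.3; filterByExpr, TMM, robust glmQLFit, glmQLFTest) with region as the only term, with Benjamini-Hochberg adjustment over the 15554 tested genes. The biological coefficient of variation was 0.220. Symbols and exon lengths came from GENCODE M21 (45229 of 46078 identifiers matched). CPM values are scaled by TMM, lengths are the union of exons, and bounds set each library with 3 counts or fewer to 3. Bounds cover counting error only. Ratios within libraries were compared by exact permutation tests (SciPy 1.17.1), with a smallest *p* of 0.1 and with libraries at 0 left out. Promoters came from the RefSeq table (GRCm38.p6). Alternatives were DESeq2 1.42.0, limma voom (limma 3.58.1), RLE, upper quartile and library total scaling, no filter or 10 counts in every library, no fold threshold, glmTreat, a replicate block, longest transcripts as lengths, and leaving out each library. On simulated data with 15554 genes, 197 of 200 genes changed 4-fold were called (98.5%) with 10 false calls. That simulation changed only those 200 genes, in random directions, with the same dispersion for every gene. In the data 3999 genes were called higher and 3256 lower, and spread differed between genes. The simulated rates therefore do not give the error rates of the calls made here. Genes named are the 8 members, every gene of the oxidase, NOX, nitric oxide synthase and arginine lists, of other lists the 3 with the largest called change in each direction and genes at 3 counts or fewer where a count turns on them, and the 3 genes most like each of *Cybb*, *Nox4*, *Nos2*, and *Arg1*. *Ptgs2*, *Prex1*, *Cd163*, *P2ry12*, *Ly6g*, *Mpo*, *Elane*, *Csf3r*, *Mrc1*, and *Retnla* were named after their values were seen. A gene of the phagocyte oxidase list is not reported here and was left out of list counts and ratios.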

Additional observations from a re-analysis of the deposited data

How the results depend on the processing

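All 8 members were called higher under every alternative that tested them, with log2 fold changes of 8.10 to 8.52 for *Cybb*, 6.04 to 6.55 for *Cyba*, 3.72 to 4.04 for *Ncf1*, 5.54 to 7.01 for *Ncf4*, 5.09 to 5.93 for *Rac2*, 6.40 to 7.32 for *Nox4*, 2.13 to 3.15 for *Nos2*, and 5.34 to 6.83 for *Arg1*. A minimum of 10 counts in every library removed genes that were nearly absent from the contralateral cortex. It left 2 members (*Cybb* and *Ncf1*), both called higher, and calls of 4 phagocyte oxidase genes, 0 other NOX genes, 1 nitric oxide synthase gene, 0 tetrahydrobiopterin genes, 7 classical genes and 7 alternative genes as higher and 1 arginine gene as lower. DESeq2, and edgeR with no filter, called 1 other NOX gene lower (*Duox1*). Nitric oxide synthase genes called lower numbered 1 with no filter and with glmTreat, and 1 to 2 when a library was left out. Without a fold threshold, 2 tetrahydrobiopterin genes were called higher and 6 arginine genes lower. Scaling by library totals moved the median over all tested genes from 0.03 to 0.23. Whether libraries with the same replicate number share a mouse is not known. Deviations of same-numbered libraries correlated at -0.177, 0.094, and -0.006, and those of other pairings at -0.22 to 0.171. With so few libraries this check cannot decide whether the numbers pair the samples. With a replicate block, 3945 genes were called higher and 3222 lower, against 3999 and 3256 without it, and all 8 members were called higher. Using the longest transcript as the length leaves every difference of ratios as it was by construction. Contralateral counts under 10 limit the precision of the fold changes of *Cyba*, *Ncf4*, *Nox4*, *Nos2*, and *Arg1*, and *Rac2* had such a count in contralateral replicate 3.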
